A study of Mus musculus with 27 samples.

Results

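Lipid droplet proteins and lipases were followed in the livers of mice over a reproductive cycle. The 10 genes were taken from a list of names: the perilipins Plin2, Plin4 and Plin5, the CIDE genes Cidea, Cideb and Cidec, the lipase inhibitor gene G0s2, and the lipase genes Pnpla2, Pnpla3 and Mgll. All 10 were found by identifier among the 51826 genes of the deposited tables. The expression filter kept 9 of them among 16428 genes tested, and Cidea was left out as too low. The study sequenced RNA from whole livers of wild-type BALB/c mice, an inbred laboratory strain, with 1 library for each of 27 animals. Nulliparous mice (NUL, 4 animals) were the reference. The other groups were mice at lactation day 10 (LAC, 3 animals), mice killed 2, 4, 6 or 8 days past weaning (groups ID2, ID4, ID6 and ID8 of 3, 4, 6 and 3 animals), and mice at 4 weeks after weaning (REG, 4 animals). The labels put breeding at an age of 10 to 12 weeks, litter sizes were evened out, pups were removed after 10 to 14 days of lactation, and animals of all groups were matched for age. The labels name no transgene, deletion or drug. The libraries hold the RNA of all cells of the organ, so fewer cells of a type and less RNA per cell cannot be told apart.

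Hepatocytes store triglyceride in lipid droplets, whose surface is covered by perilipins and CIDE proteins. Perilipins shield the stored fat and control the access of lipases, while CIDE proteins sit where droplets touch and let fat pass from one droplet into another. Triglyceride is broken down stepwise by adipose triglyceride lipase, which Pnpla2 encodes and the G0s2 protein inhibits, and by hormone-sensitive lipase and monoacylglycerol lipase. In liver the released fatty acids are burned, built into lipoproteins or used as signals, and lactation is known for a high flux of fat through this organ.

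Estimated counts totalled 41120650 to 75664540 per library. All 6 hepatocyte markers were present in every group, with summed levels of 87310 to 225800 CPM (counts relative to the scaled library size). The sum was highest in LAC, at 181800 to 225800 CPM, against 93700 to 121000 CPM in NUL, mostly through Alb (177100 against 89790 CPM on average). Of the 6 markers 1 was called higher in LAC than in NUL. Adipocyte markers summed to between 0.0451 and 12.5 CPM, with the highest value in ID6_201. Pancreatic acinar markers summed to 1565 CPM in ID2_31 and to 127 CPM or less in every other library. Some libraries stood apart in the genes described here, first of all ID8_14, and values are given with and without them. Reads of ID8_14 came from 2 runs and those of ID8_101b and ID8_98b from 1 run each. The title numbers of 7 animals were under 200, among them all 3 of ID8, 2 of ID2 and 2 of ID4, and the labels do not explain the number.

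Promoters are shown for Pnpla3, which moved most, and for Mgll and Plin2, in which the motif CACGTG was found. RefSeq promoters, 250 bases before to 50 after each start site on GRCm38.p6, were at hand for 9 of the 10 genes, 12 promoters in all. The 3 below are printed 5′ to 3′ on the strand of the gene, with the palindrome CACGTG, the canonical E-box that basic helix-loop-helix factors bind, in capitals.
Pnpla3 (chr15:84167566-84167865, plus strand): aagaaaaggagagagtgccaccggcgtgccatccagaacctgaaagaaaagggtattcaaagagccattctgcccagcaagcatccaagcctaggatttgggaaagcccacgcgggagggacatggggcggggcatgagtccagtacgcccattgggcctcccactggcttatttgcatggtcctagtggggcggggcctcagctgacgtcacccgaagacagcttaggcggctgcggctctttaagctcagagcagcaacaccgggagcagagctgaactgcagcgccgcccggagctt
Mgll (chr6:88724162-88724461, plus strand): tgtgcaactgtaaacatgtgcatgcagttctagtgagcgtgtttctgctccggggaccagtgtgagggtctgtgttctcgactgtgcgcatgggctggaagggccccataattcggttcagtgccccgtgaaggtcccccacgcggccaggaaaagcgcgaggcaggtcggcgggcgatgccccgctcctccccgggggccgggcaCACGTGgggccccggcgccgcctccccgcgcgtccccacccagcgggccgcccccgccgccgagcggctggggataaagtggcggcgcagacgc
Plin2 (chr4:86670010-86670309, minus strand): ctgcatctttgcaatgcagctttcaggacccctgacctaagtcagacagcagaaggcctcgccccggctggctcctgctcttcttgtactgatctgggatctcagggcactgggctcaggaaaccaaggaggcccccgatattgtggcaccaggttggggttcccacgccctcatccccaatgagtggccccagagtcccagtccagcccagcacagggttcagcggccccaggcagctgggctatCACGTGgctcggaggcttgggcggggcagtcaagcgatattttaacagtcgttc
The E-box lies at bases 207 to 212 of the Mgll window and at bases 247 to 252 of the Plin2 window, and 7.15% of 32851 mouse promoters of the same length hold it. The direct repeat that PPAR-RXR pairs bind (DR1), held by 0.0396% of all promoters, was in none of the 12, nor was a looser form of it (0.381%). The sterol element core TCACNCCAC (1.24% of all promoters) was not found either. A single unit of that repeat, TGACCT, held by 16.3%, was found in the Plin2 promoter and in both promoters of Plin5. Both strands were searched, and the unit is part of the repeat. A match describes letters in this window only, and the Pnpla3 window held none of these motifs.

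Plin2 and Cideb made up most of the transcripts of their families, and Mgll was the most abundant of 4 neutral lipases. TPM, the authors' value per transcript length and library, allows levels of different genes to be set side by side. Over the 27 libraries Plin2, the perilipin found on droplets of most cells, stood at 270 ± 77.5 TPM (SD, n = 27) and held 82.9 ± 2.99% of the summed TPM of the 5 perilipins. Plin5, the perilipin of oxidative tissues that tethers droplets to mitochondria, stood at 28.3 ± 7.05 TPM. Plin4, best known from adipose tissue, stood at 0.620 ± 0.255 TPM. Cideb, the CIDE gene of hepatocytes that also serves lipoprotein loading, stood at 270 ± 24.5 TPM and held 99.4% of the CIDE transcripts. Cidec, whose protein builds large droplets in fat cells, stood at 1.64 ± 0.854 TPM. Mgll, whose enzyme splits monoacylglycerol, was the most abundant of 4 neutral lipases at 59.3 ± 10.9 TPM, ahead of Pnpla2 at 31.1 ± 4.66 TPM. Pnpla3, a droplet-bound relative of Pnpla2, ranged from 0.18 TPM in an ID4 liver to 28.7 TPM in ID8_14.

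**Figure D1:**
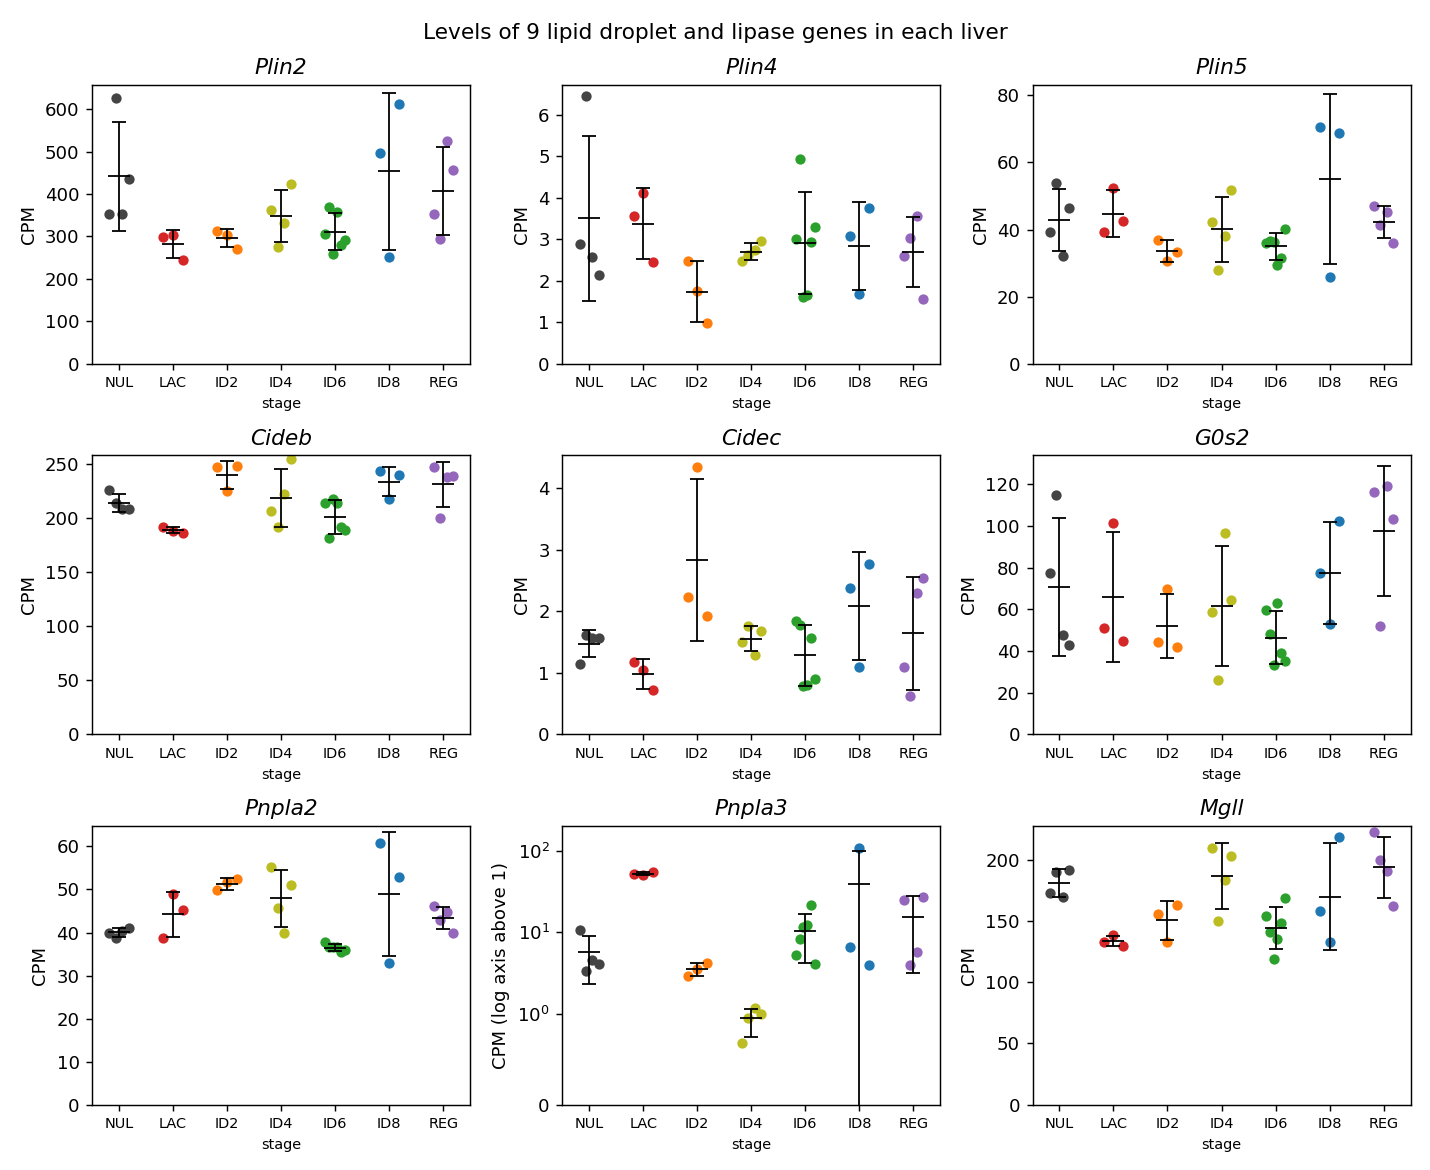
CPM of 9 genes (1 panel each, with its own y axis starting at 0) in each of the 27 livers by stage; dots are livers, the long bar is the mean and the short bars are 1 SD. The Pnpla3 axis is linear from 0 to 1 and logarithmic above. The 3 LAC livers lie at 50.5 to 54.5 CPM for Pnpla3 and the 4 ID4 livers at 0.684 to 1.17 CPM, while Plin2 spans 245 to 625.4 CPM over all 27 livers.

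A joint test asked whether a gene differed among the 7 stages at all. It called 4 of the 9 genes, against 27% of all genes tested (edgeR, called where the p adjusted over all genes was under 0.05). These were Pnpla3 (edgeR adjusted p = 0.000924), Mgll (0.00874), Pnpla2 (0.0106) and Cideb (0.0326), so all 3 lipase genes of the list were among them. The other 5 were not, with Cidec at an adjusted p of 0.0752 by the same edgeR test, Plin2 at 0.0981, Plin5 at 0.246, G0s2 at 0.258 and Plin4 at 0.503. Without ID8_14 the count was 7, against 27.5% of all genes, with Plin2 (edgeR adjusted p = 0.00666), Plin5 (0.00252) and Cidec (0.0332) added. DESeq2 called 6 of the 9, against 34% of all genes, with Plin2 (adjusted p = 0.0106) and Cidec (0.0150) added. Cidec was also called on log2(TPM + 1) (limma adjusted p = 0.0342) and with the effective length as an offset (edgeR adjusted p = 0.0173). The Pnpla2 call was lost on log2(TPM + 1) (limma adjusted p = 0.238), with the title number range (edgeR adjusted p = 0.181) and with a score of clock genes as a covariate (0.112). Cideb missed the threshold when any of 10 animals was left out (edgeR adjusted p up to 0.0728), without the expression filter (0.0513), with the clock score (0.0684) and with the number of runs (0.0594) as covariates.

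Pnpla3 (ENSMUSG00000041653, chromosome 15, 84167837 to 84187236, plus strand) had the widest swings. Mir6392 and Gm49513 overlap it on the same strand, and its counts were whole in all 27 libraries. The transcripts listed for it by the authors differed from those of GENCODE release 21. In NUL the 4 livers stood at 10.7, 3.34, 4.53 and 4.13 CPM. The 3 LAC livers stood at 51.1, 50.5 and 54.5 CPM, far above every NUL liver and close to each other. The 3 ID2 livers stood at 2.93, 3.52 and 4.23 CPM, below all LAC livers, and 2 of them lay inside the NUL range. The 4 ID4 livers had 0.684, 0.958, 1.17 and 0.995 CPM, the lowest of the series, with no overlap with any other stage. In ID6 the 6 livers ran from 4.13 to 21.4 CPM with a median of 9.87 CPM, all above ID4. ID8 gave 6.55, 107 and 3.96 CPM, so that ID8_14 exceeded every LAC liver while the other 2 lay among the NUL livers. In REG, REG_203 and REG_239 stood at 24.8 and 27.2 CPM, while REG_214 and REG_234 stood at 3.97 and 5.69 CPM. By mean level the order was LAC, ID8, REG, ID6, NUL, ID2 and ID4, and of neighbouring stages in that order ID2 and ID4 alone did not overlap.

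Pnpla3 was higher in LAC than in NUL and lower in ID2 than in LAC. LAC livers averaged 52.0 ± 2.14 CPM (SD, n = 3) against 5.67 ± 3.37 CPM in NUL (n = 4), 9.15 times as much (log2 difference, that is log2 fold change, 3.19, SE 0.86, edgeR adjusted p = 0.0191). From LAC to ID2 the level dropped to 0.0682 of its value, a log2 difference of -3.87 (SE 1.001, edgeR adjusted p = 0.0122). The ID4 level of 0.952 ± 0.201 CPM (n = 4) had a log2 difference of -1.90 against ID2 (SE 0.97, edgeR adjusted p = 0.397) and of -2.58 against NUL (SE 0.91, edgeR adjusted p = 0.117), and neither passed the test. Fitted on the compared groups alone, without the spread of the other stages, ID4 was below ID2 with an edgeR adjusted p of 0.000427 and below NUL with one of 0.00763, and DESeq2 called the latter too (adjusted p = 0.0135). From ID4 to ID6 Pnpla3 rose 10.97-fold to 10.5 ± 6.25 CPM (n = 6), a log2 difference of 3.46 (SE 0.88, edgeR adjusted p = 0.0192). The ID8 mean of 39.2 ± 58.7 CPM (n = 3) rested on ID8_14. Its log2 difference against ID6 was 1.91 with all 3 livers and -1.01 without ID8_14, and neither passed the test (edgeR adjusted p = 0.141 and 0.443). Against NUL the ID8 value was 2.79 with ID8_14 and -0.13 without it (edgeR adjusted p = 0.160 and 0.956).

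The Pnpla3 calls lay near the threshold when single livers were left out. The LAC call against NUL was lost without NUL_221, NUL_226 or NUL_227, with an edgeR adjusted p of 0.0569 at most and a log2 difference of 3.02 at least. The drop from LAC to ID2 was lost without ID2_224 (edgeR adjusted p = 0.0532) and with the title number range as a covariate (0.0824), and the rise from ID4 to ID6 without ID4_13 (0.0663) or ID4_215 (0.0534) and with the title number range (0.0711). On log2(TPM + 1), which compresses low levels, that rise was 1.56 and was not called (limma adjusted p = 0.0633). A score of clock genes that differed between libraries, from -4.99 in ID6_216 to 0.769 in ID2_39, was entered as a covariate as well. With it the ID2 difference against LAC was -4.92 and the ID6 difference against ID4 was 3.88 on the log2 scale, both larger than without it, and the LAC difference against NUL was 2.97, smaller than without it. All 3 remained under an edgeR adjusted p of 0.05. The sampling time of day is not given in the sources used here.

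Mgll (ENSMUSG00000033174, chromosome 6, 88724412 to 88828360), the lipase of the last step of triglyceride breakdown, was lower in lactation. Other annotated genes overlap it on both strands, and its counts were whole in all 27 libraries. The NUL livers stood at 173, 190, 170 and 192 CPM, and the LAC livers at 133, 139 and 130 CPM, with no overlap. The mean of 134 ± 4.31 CPM in LAC (n = 3) was 0.739 times that of NUL, 181 ± 11.4 CPM (n = 4), a log2 difference of -0.44 (SE 0.14, edgeR adjusted p = 0.0376). In ID2 the 3 livers had 156, 133 and 163 CPM, all below NUL, but the log2 difference of -0.26 did not pass the test (edgeR adjusted p = 0.332). ID4 gave 210, 150, 184 and 204 CPM, which spans the NUL livers. From there Mgll fell to 0.774 of its value in ID6, where the 6 livers ran from 119 to 169 CPM with a median of 145 CPM (log2 difference -0.37, SE 0.11, edgeR adjusted p = 0.0401). The ID4 and ID6 livers overlapped through ID4_15. ID8 had 158, 133 and 219 CPM, with ID8_14 lowest, and REG had 223, 200, 191 and 162 CPM. Both calls were small and fragile: the first was lost without any of 5 of the 7 livers (edgeR adjusted p up to 0.111) and the second without 7 of the 10 (up to 0.153). The second was also lost without the expression filter (edgeR adjusted p = 0.0514), with the effective length as an offset (0.0690), and with the title number range (0.0742) or the clock score (0.0633) as covariates. On log2(TPM + 1) it was -0.22 (limma adjusted p = 0.265), and it was not called on log2(TPM + 0.1) either (0.263).

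Pnpla2 (ENSMUSG00000025509, chromosome 7, 141455198 to 141460743), which encodes the enzyme of the first step, moved after weaning. NUL livers lay within 38.6 to 41.2 CPM and LAC livers at 38.6, 48.9 and 45.1 CPM. The ID2 livers lay at 49.8, 51.8 and 52.5 CPM, above every NUL and every LAC liver. Their log2 difference of 0.36 against NUL (SE 0.12) did not pass the test (edgeR adjusted p = 0.112), though it did in a fit on these groups alone (0.0213). ID4 livers had 55.2, 45.7, 39.9 and 51.0 CPM. The 6 ID6 livers lay between 35.4 and 37.9 CPM (median 36.5 CPM), below all ID4 livers, and the fall to 0.761 of the ID4 level was called (log2 difference -0.395, SE 0.11, edgeR adjusted p = 0.0183). ID8_101b and ID8_98b stood at 60.8 and 53.0 CPM, above all ID6 livers, whereas ID8_14 stood at 33.0 CPM, below them. With all 3, Pnpla2 rose from ID6 to ID8 by 0.42 on the log2 scale (SE 0.11, edgeR adjusted p = 0.0334), and without ID8_14 by 0.64 (3.28e-04). Without ID8_101b the value was 0.24 (edgeR adjusted p = 0.352), and the call was also lost without ID8_98b (0.172), ID6_209 (0.0618) or ID6_232 (0.0585). With the clock score as a covariate it was 0.44 (edgeR adjusted p = 0.0579). The clock scores of ID8, -3.19 to -1.54, all lay above those of ID6, -4.99 to -3.50, and 4 of 12 clock genes were called between these stages. On log2(TPM + 1) the rise was 0.20 (limma adjusted p = 0.373), and in a fit on these groups alone the edgeR adjusted p was 0.125. Against NUL the log2 difference of ID8 was 0.29 with all livers (edgeR adjusted p = 0.322), 0.50 without ID8_14 (0.0208) and 0.10 without ID8_101b (0.860). REG livers had 46.05, 42.89, 44.65 and 39.89 CPM. The fall from ID4 to ID6 was lost without ID4_13 (edgeR adjusted p = 0.0989) or ID4_215 (0.0617), with the title number range (0.120), and on log2(TPM + 1) (limma, -0.25, adjusted p = 0.187). All ID8 livers carried numbers under 200, and with that range as a covariate the rise from ID6 to ID8 had an edgeR adjusted p of 0.420, so within that comparison stage and number cannot be told apart.

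G0s2 (ENSMUSG00000009633, chromosome 1, 193272161 to 193273217), whose product binds and blocks the Pnpla2 lipase, varied widely between the animals of a stage. It lies within Lamb3 on the other strand, and the use of strand is not given in the sources used here. Its counts were whole in all 27 libraries, so the authors' program divided none of its reads with Lamb3. Whether reads of Lamb3 were counted whole for G0s2 was not tested. NUL livers stood at 77.4, 115, 47.8 and 42.8 CPM, LAC livers at 51.0, 102 and 44.9 CPM, and ID4 livers at 58.7, 26.2, 96.9 and 64.3 CPM. ID2 had 44.2, 69.9 and 41.8 CPM and ID8 had 77.3, 52.8 and 102 CPM. REG held the highest mean, 97.7 ± 31.1 CPM (n = 4), with 116, 119 and 103 CPM in 3 livers and 52.1 CPM in REG_214. ID6 held the lowest, 46.4 ± 12.6 CPM (n = 6). No comparison of stages was called, and its smallest edgeR adjusted p, for ID8 against ID6, was 0.286 at a log2 difference of 0.74 (SE 0.38). That value was 0.49 without ID8_98b (edgeR adjusted p = 0.654) and 1.29 with the clock score as a covariate (0.0614). The log2 ratio of G0s2 to Pnpla2 in TPM, inhibitor over enzyme, was 2.21 ± 0.716 in NUL (n = 4) and ran from 1.44 ± 0.393 in ID2 (n = 3) to 2.53 ± 0.547 in REG (n = 4). None of the 6 stages passed the test against NUL (exact permutation test, two-sided, adjusted p at least 0.457 over 12 ratio tests), and with 3 animals against 4 the unadjusted p cannot go below 0.0571.

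Among the perilipins, Plin2 (ENSMUSG00000028494, chromosome 4, 86648386 to 86670060) had 352, 625.4, 352 and 436 CPM in NUL. The LAC livers, at 299.6, 304 and 245 CPM, and the ID2 livers, at 313, 303 and 272 CPM, all lay below the lowest NUL liver. For ID2 the log2 difference against NUL was -0.58 (edgeR adjusted p = 0.221), and with the clock score as a covariate its sign turned, at 0.12 (0.912). The log2 difference of LAC against NUL was -0.64 (SE 0.25), an unadjusted edgeR p of 0.0157 and an adjusted p of 0.0999, so that it was not called. It was called with DESeq2 (adjusted p = 0.0332), and it was -0.42 without NUL_221, the highest liver of the series. ID4 (276 to 423 CPM), ID6 (259 to 370 CPM) and REG (295 to 524 CPM) overlapped NUL. ID8 held 496, 251 and 613 CPM, with ID8_14 again the lowest. Without that liver Plin2 passed the test against ID6 with a log2 difference of 0.83 (edgeR adjusted p = 0.0182), compared with 0.54 with it (0.159) and 0.265 without ID8_98b (0.644). With all livers it also passed when the clock score was a covariate (0.90, edgeR adjusted p = 0.0159).

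Plin5 (ENSMUSG00000011305, chromosome 17, 56111601 to 56117596) behaved alike in ID8, with 70.5 and 68.9 CPM in ID8_101b and ID8_98b and 25.7 CPM in ID8_14, the lowest value of all 27 livers. The other 2 ID8 livers were the highest of the series. Its log2 difference against ID6 was 0.65 with all livers (edgeR adjusted p = 0.0991) and 0.99 without ID8_14 (0.00228), but 0.44 without ID8_101b (0.437) and 0.46 without ID8_98b (0.410). DESeq2 called it with all livers (adjusted p = 0.0257). Elsewhere the stage means lay between 33.6 ± 3.21 CPM (ID2, n = 3) and 44.7 ± 6.95 CPM (LAC, n = 3) with overlapping livers, except that ID2 lay below LAC. The log2 ratio of Plin5 to Plin2 in TPM was -2.78 ± 0.235 in LAC (n = 3) and -3.46 ± 0.186 in NUL (n = 4), with all 3 LAC livers above all 4 NUL livers. The exact permutation p of 0.0571 is the smallest that 3 against 4 animals can give, and the adjusted value was 0.457. In shares, Plin2 made up 86.0 ± 1.37% of perilipin TPM in NUL and 78.2 ± 2.43% in LAC, and Plin5 7.86 ± 0.910% and 11.5 ± 1.64%.

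Plin4 (ENSMUSG00000002831, chromosome 17, 56100591 to 56109803) was sparse, at 0.991 to 6.45 CPM, and no comparison called it. NUL had 2.89, 6.45, 2.56 and 2.13 CPM, and ID2 had 2.47, 1.75 and 0.991 CPM, the lowest mean of the stages. The LAC livers had 3.55, 4.13 and 2.44 CPM and the ID4 livers 2.46 to 2.97 CPM, while ID6 (1.60 to 4.93 CPM), ID8 (1.68 to 3.76 CPM) and REG (1.56 to 3.55 CPM) overlapped them. The log2 difference of ID2 against NUL was -1.003 (SE 0.41, edgeR adjusted p = 0.199), and it was -0.53 without NUL_221 and -0.005 with the clock score as a covariate. Plin4 overlaps Hdgfl2 on the other strand, and its counts were whole in all 27 libraries. Whether reads of Hdgfl2 were counted whole for Plin4 was not tested.

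Cideb (ENSMUSG00000022219, chromosome 14, 55754050 to 55758458) varied least of the 9 genes, with a coefficient of variation of 10.3% over the 27 livers. NUL livers lay at 208 to 226.2 CPM and LAC livers at 192, 188 and 186 CPM, all below NUL, although the log2 difference of -0.18 was not called (SE 0.09, edgeR adjusted p = 0.231). On log2(TPM + 1) it was -0.28 and was called (limma adjusted p = 0.00706). From LAC to ID2, with 247, 225 and 248 CPM, it rose 1.27-fold without overlap (log2 difference 0.35, SE 0.10, edgeR adjusted p = 0.0164). ID4 (192 to 254 CPM), ID6 (181 to 217 CPM), ID8 (median 239.8 CPM) and REG (200.2 to 248 CPM) all overlapped NUL. The rise from LAC to ID2 was lost without ID2_224, ID2_39 or LAC_213 (edgeR adjusted p up to 0.0601). Reads of Cideb were shared with other genes in all 27 libraries, as its counts were not whole, and Nop9 overlaps it on the other strand, so its counts depend on how the authors' program divided those reads.

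Cidec (ENSMUSG00000030278, chromosome 6, 113424634 to 113435760) rose 2.91-fold from LAC to ID2, from 1.17, 1.05 and 0.710 CPM to 2.23, 4.34 and 1.92 CPM (log2 difference 1.54, SE 0.44, edgeR adjusted p = 0.0175). The groups did not overlap, and the high ID2 value came from ID2_31. NUL livers had 1.14 to 1.62 CPM, ID4 livers 1.29 to 1.75 CPM and ID6 livers 0.784 to 1.84 CPM. In ID8, ID8_14 had 1.09 CPM and the other 2 had 2.38 and 2.76 CPM, and in REG 2 livers had 2.30 and 2.53 CPM and 2 had 1.10 and 0.617 CPM. Without ID2_31 the log2 difference of ID2 against LAC was 1.09 (edgeR adjusted p = 0.130). That liver also had the highest sums of ID2 for adipocyte markers, at 5.89 CPM against 0.506 CPM in the lowest ID2 liver, and for pancreatic markers, at 1565 CPM. Their part in the Cidec value was not tested. The Cidec call was also lost without LAC_213 or LAC_240, and with the title number range (edgeR adjusted p = 0.117). The clock scores of ID2, -1.88 to 0.769, all lay above those of LAC, -4.13 to -2.20. Between these stages 4 of 12 clock genes were called, against 16.1% of all genes. Cidea, the CIDE gene of brown fat, had between 0 and 17 counts per library. The highest were ID6_201 with 17 and ID6_209 with 16 counts. The other stages reached at most 9 counts in LAC, 8 in ID8, 5 in ID2, 2 in ID4 and 1 in REG. It had 1 count in NUL_226 and 0 in the other 3 NUL livers, which allows up to 3 counts in each.

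**Figure D2:**
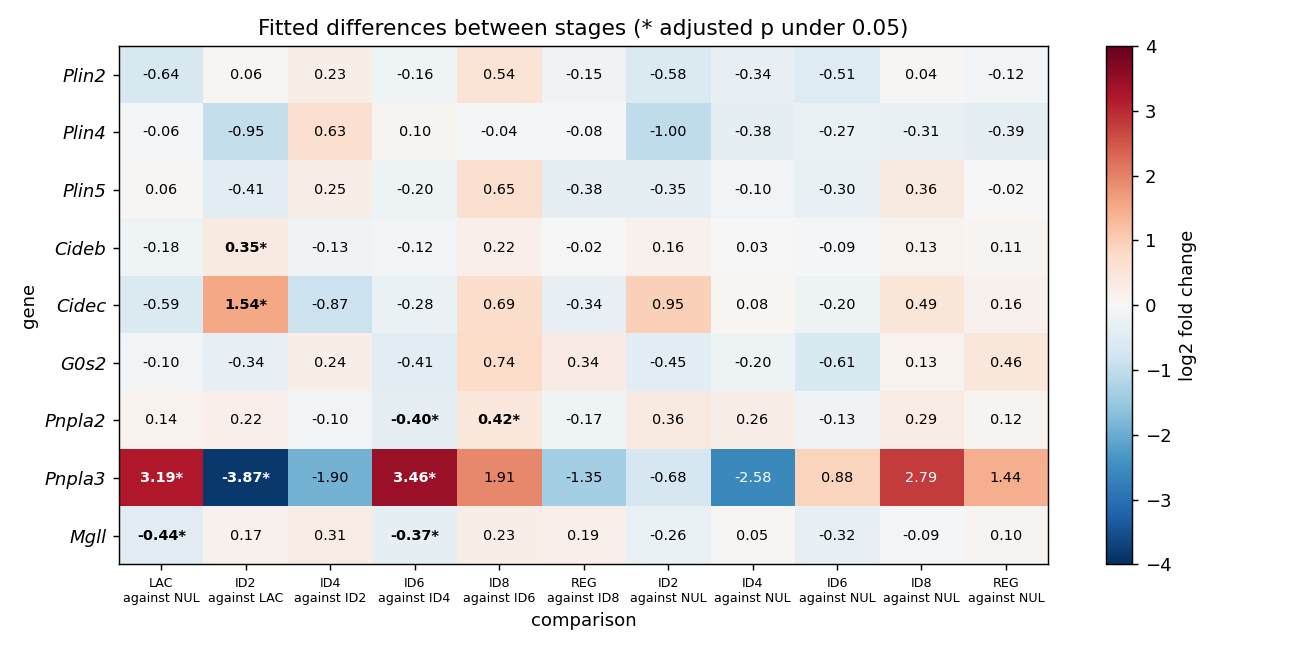
Log2 fold changes of 9 genes (rows) in 11 comparisons of stages (columns) from the fit on all 27 livers, with the colour scale from -4 to 4 and the value printed in each cell; a star marks an edgeR adjusted p under 0.05. Pnpla3 carries the largest values, 3.19, -3.87 and 3.46 among the starred ones, and the 6 starred values of the other genes lie between -0.44 and 1.54.

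Read by comparison, few members were called, and each count rests on 9 genes. LAC against NUL called 2 of 9, Pnpla3 higher and Mgll lower, where 11.2% of all genes were called, 5.19% higher and 6% lower. ID2 against LAC called 3 of 9, Cideb and Cidec higher and Pnpla3 lower, against 16.1% of all genes, 8.48% higher and 7.64% lower. ID6 against ID4 called 3 of 9, Pnpla3 higher and Pnpla2 and Mgll lower, against 8.53%, 3.89% higher and 4.64% lower. ID8 against ID6 called Pnpla2 alone, as higher, against 4.12%, 2.37% higher and 1.75% lower. The median log2 difference of the 9 genes was -0.10 in LAC against NUL and 0.06 in ID2 against LAC, beside -0.01 and 0.02 over all genes tested. It was -0.20 in ID6 against ID4 (0.01 over all genes), 0.54 in ID8 against ID6 (0.001) and -0.35 in ID2 against NUL (-0.02). In ID8 against ID6, 5 of the 9 had an unadjusted edgeR p under 0.05, against 20.5% of all genes. The livers of LAC and NUL did not overlap for 4 of the 9 genes, against 21.4% of all genes, and those of ID2 and LAC for 5, against 35.7%. For ID6 and ID4 these were 2 genes against 8.25%, and for ID2 and NUL 4 genes against 17.9%. The comparisons with NUL share the same 4 livers.

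In the fit on all 27 livers no member was called by edgeR in the other 7 comparisons, in which the share of all genes called was 3.24% for ID2, 4.25% for ID4, 1.08% for ID6, 0.499% for ID8 and 0.0852% for REG against NUL, 1.49% for ID4 against ID2 and 0.0487% for REG against ID8. An unadjusted edgeR p under 0.05 was reached by 4, 2, 2, 2 and 0 members for ID2, ID4, ID6, ID8 and REG against NUL, by 2 for ID4 against ID2 and by 0 for REG against ID8. Over all genes the same unadjusted threshold was passed by 16.9, 18.6, 11.9, 12.8 and 7.17% against NUL, by 13.9% for ID4 against ID2 and by 9.02% for REG against ID8. DESeq2 called 1 member, Pnpla3, in ID4 against NUL (adjusted p = 0.0135) and in ID8 against NUL (0.0393), where it called 6.86% and 1.42% of all genes, and 0 members in the other 5, where it called 0.45% to 5.25%. Limma on log2(TPM + 1) called 0 in all 7, where it called 0.0487% to 3.15% of all genes.

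**Figure D3:**
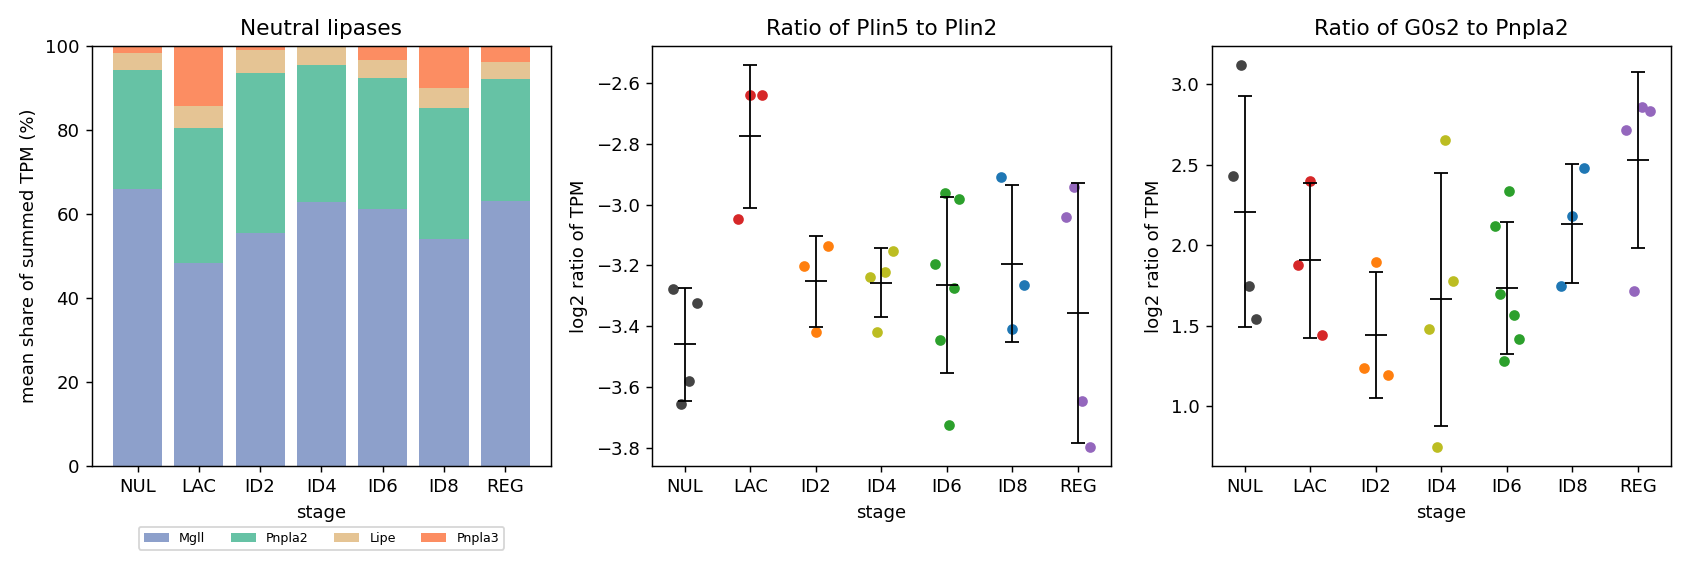
Left, mean share of each gene in the summed TPM of 4 neutral lipases by stage, in percent; middle and right, the log2 ratio of TPM of Plin5 to Plin2 and of G0s2 to Pnpla2, where dots are livers, the long bar is the mean and the short bars are 1 SD. Pnpla3 takes 14.2% of the summed TPM of these 4 lipases in LAC and 0.252% in ID4, and the 3 LAC livers lie above the 4 NUL livers in the Plin5 ratio.

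The make-up of the transcripts of these 4 neutral lipases shifted with these changes. Mgll held 66.01 ± 2.14% of the summed TPM of Mgll, Pnpla2, Pnpla3 and Lipe, the gene of hormone-sensitive lipase, in NUL (n = 4), and 48.4 ± 2.49% in LAC (n = 3). Pnpla3 held 1.57 ± 0.945% in NUL, 14.2 ± 0.930% in LAC, 1.004 ± 0.176% in ID2 and 0.252 ± 0.0731% in ID4. In ID8_14 it reached 27.6%. Pnpla2 held 28.1 ± 1.69% in NUL and 37.97 ± 2.41% in ID2. In no library did Lipe exceed 6.63%.

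Single livers deviated from their stage in several of these genes at once. ID8_14 lay below the ID8 mean in 8 of the 9 genes, by 0.96 on the log2 scale for Plin5, 0.81 for Cidec, 0.76 for Plin2 and 0.52 for Pnpla2, and above it by 2.92 for Pnpla3. Of 36 pairs of genes, 4 deviated together after stage means were removed, over 27 livers (100000 permutations within stages, adjusted over the pairs). These were Plin5 with Mgll (Pearson r 0.695, permutation p 0.00291, adjusted p 0.0373, Spearman rho 0.693, permutation p 0.0011), Plin2 with G0s2 (0.635, 0.00124, 0.0373, 0.646 and 0.00213), Plin2 with Cidec (0.629, 0.00311, 0.0373, 0.583 and 0.00544) and Plin4 with Plin5 (0.528, 0.00433, 0.0390, 0.581 and 0.00305). Pnpla3 ran against Plin5, with r -0.675, but the permutation p of 0.0217 gave an adjusted value of 0.0977. Plin4 with Pnpla3 passed by rank (Spearman rho -0.658, permutation p 0.00191, adjusted p 0.0256) but not by Pearson r (-0.530, permutation p 0.0148, adjusted p 0.0888). Without the 2 livers farthest from the median, ID8_14 among them in 3 of the 4 pairs, r was 0.558, 0.578, 0.604 and 0.533 and the adjusted permutation p was 0.111 for each, so that no pair passed, although r for Plin4 with Plin5 was no lower than before.

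**Figure D4:**
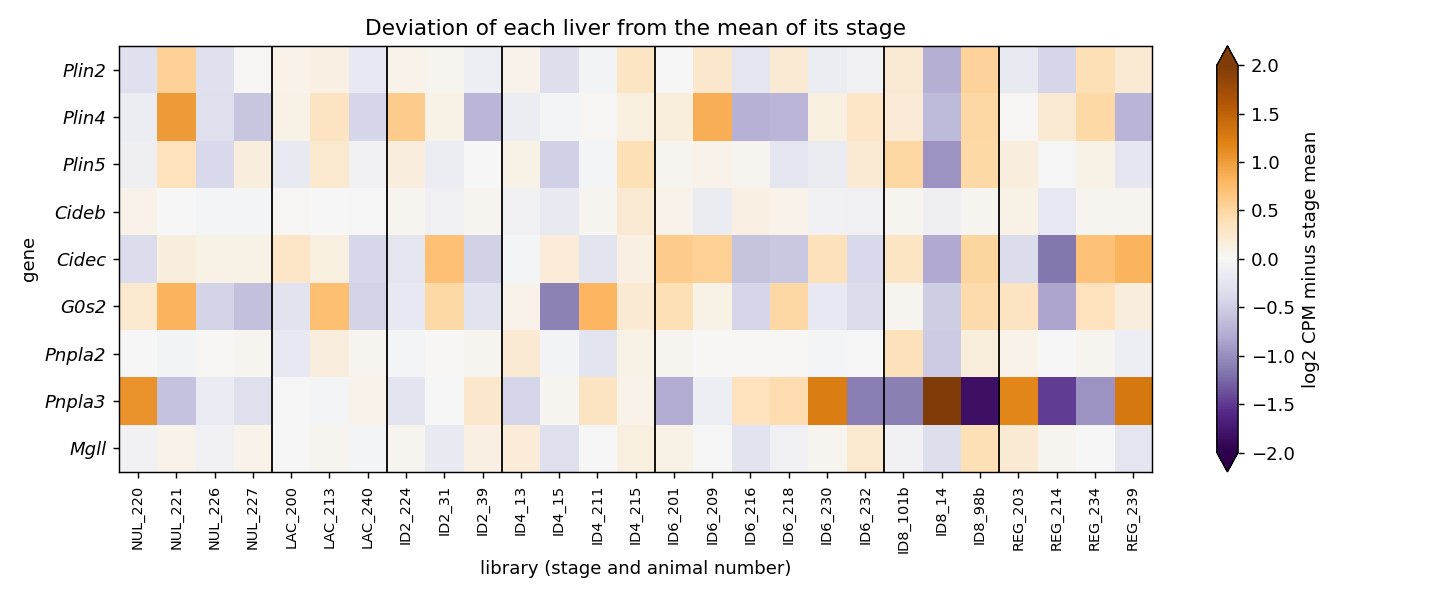
Deviation of each liver (columns, grouped by stage) from the mean of its stage in log2 CPM, for 9 genes (rows); orange is above the stage mean, violet below, and the colour scale runs from -2 to 2, with values beyond it in the end colours. The ID8_14 column is violet in 8 rows and dark orange for Pnpla3 (2.92), and Cideb and Pnpla2 are pale in nearly all livers.

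The pattern of Pnpla3 over the 27 libraries was most like those of fatty acid synthesis genes. Out of 10512 genes, the highest Pearson correlations in log2 CPM were with Elovl6, an elongase of saturated fatty acids (r 0.968), Acaca, which makes malonyl-CoA (0.956), and Fasn, the fatty acid synthase (0.946). These values describe libraries that share the stages, and no test was attached. Since these genes were picked for their likeness to Pnpla3, their values in single livers follow from that choice and are given as a description. Elovl6 had 385 CPM in ID8_14 and 63.4 and 51.3 CPM in the other 2 ID8 livers, and Fasn had 1703 against 320 and 275 CPM. In REG, Elovl6 stood at 141 and 213.7 CPM in REG_203 and REG_239 and at 86.0 and 76.2 CPM in REG_214 and REG_234. NUL_220, the highest NUL liver for Pnpla3, was also the highest for Elovl6 (89.96 CPM against 45.0 to 76.4 CPM) and Acaca (105 CPM against 76.0 to 102 CPM), but not for Fasn (389.7 CPM, with 471.4 CPM in NUL_227). For Mgll, Etfdh, a gene of fatty acid oxidation (r 0.811), and Nfe2l1 (0.758) were among the most alike. For Pnpla2 they were Fbxo31 (0.822), Cyb5d2 (0.805) and Tmem120a (0.802), and for Cideb Nipsnap1 (0.828), Hcfc1r1 (0.819) and Gstz1 (0.809).

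**Figure D5:**
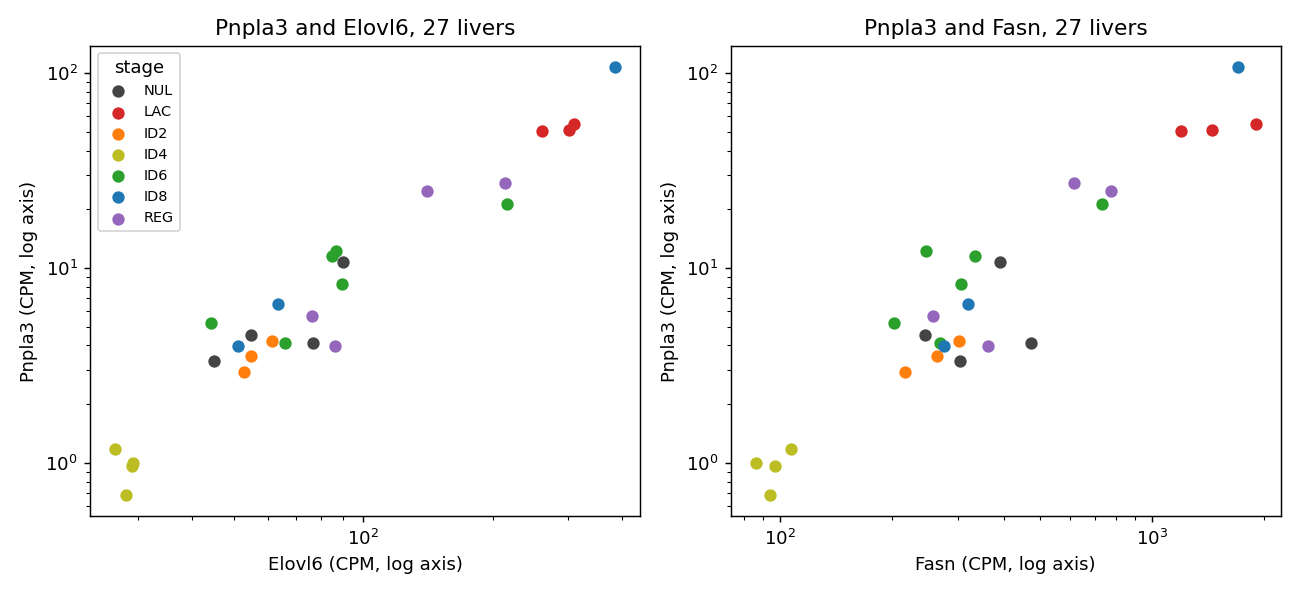
CPM of Pnpla3 (y, log axis) against CPM of Elovl6 (left) and Fasn (right, x, log axes); each dot is 1 of 27 livers, coloured by stage. The 4 ID4 livers lie at the lower left, and the 3 LAC livers and ID8_14 (385 CPM of Elovl6, 107 CPM of Pnpla3) at the upper right.

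Around these genes, other genes of the pathway were read from lists of names. Of 18 other droplet proteins, 3 rose and 0 fell from NUL to LAC and 0 rose and 3 fell from LAC to ID2, where 11.2% and 16.1% of all genes were called, so that these shares are near the background. Acsl3, the acyl-CoA synthetase that seeds droplets, rose from 22.7 ± 5.49 to 44.9 ± 9.85 CPM in LAC (log2 difference 0.98, edgeR adjusted p = 0.00736) and fell to 16.3 ± 0.268 CPM in ID2 (-1.46, 5.96e-04). In ID4 Acsl3 stood at 7.40 ± 1.46 CPM, lower than NUL (-1.62, edgeR adjusted p = 1.84e-04). Hsd17b13, a droplet-bound dehydrogenase of hepatocytes, was 0.34 higher in LAC than in NUL (log2, edgeR adjusted p = 0.0238).

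Of 18 other lipases and partners, 2 rose and 1 fell from NUL to LAC, and 2 rose and 6 fell from LAC to ID2, where 11.2% and 16.1% of all genes were called. Abhd5, the protein that activates the Pnpla2 lipase, rose from 33.1 ± 6.05 to 59.6 ± 3.89 CPM in LAC (log2 difference 0.85, edgeR adjusted p = 8.23e-05) and fell to 27.2 ± 2.66 CPM in ID2 (-1.13, 7.79e-06), while Pnpla2 itself passed no test in either comparison. Ces3a, a carboxylesterase, fell from 603 ± 128 to 256 ± 91.3 CPM in LAC (-1.24, edgeR adjusted p = 0.00445). Its counts were not whole in 26 libraries, those of Abhd5 in 15, of Scd1 in 16 and of Gpat3 in 24, so these genes share reads with others. Of 13 triglyceride synthesis genes, 2 rose and 1 fell in LAC against NUL, beside the same 11.2% of all genes. Gpam, the mitochondrial acyltransferase that opens the pathway, rose from 96.2 ± 21.6 to 252 ± 93.3 CPM (1.39, edgeR adjusted p = 0.0115), and Gpat3, the acyltransferase of the endoplasmic reticulum, fell from 16.1 ± 2.25 to 9.56 ± 2.37 CPM (-0.75, 0.00248).

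Of 11 other target genes of SREBP1 and ChREBP, the factors that switch on fat synthesis, 8 rose and 0 fell from NUL to LAC, 0 rose and 7 fell from LAC to ID2, and 7 rose and 0 fell from ID4 to ID6. Over all genes tested, 11.2%, 16.1% and 8.53% were called in these comparisons. The median log2 differences of the list were 1.44, -1.54 and 1.22, beside -0.01, 0.02 and 0.01 over all genes tested. In the same comparisons Pnpla3 had 3.19, -3.87 and 3.46. From NUL to ID4, where 4.25% of all genes were called, 0 rose and 2 fell. These were Scd1, the stearoyl-CoA desaturase, from 3135 ± 713 to 212 ± 45.1 CPM (log2 difference -3.89, edgeR adjusted p = 1.04e-05), and Fasn from 352 ± 99.5 to 95.9 ± 8.78 CPM (-1.88, 0.0355). The 13 target genes of the PPARs, sensors of fatty acids, were mixed, with 2 higher and 4 lower in LAC than in NUL, against 11.2% of all genes called. In ID2 against LAC 1 was higher and 4 were lower, against 16.1% of all genes. Cpt1a, which admits fatty acids to mitochondria, fell in LAC (-0.70, edgeR adjusted p = 0.0198) and rose in ID2 (1.16, 6.01e-04). Of 13 regulators, 0 rose and 1 fell in LAC against NUL, Creb3l3 (-0.53, edgeR adjusted p = 0.0369), which is near the 11.2% of all genes. In ID2 against LAC 3 rose and 2 fell, against 16.1% of all genes, among them Ppargc1a (1.12, edgeR adjusted p = 0.00451) and Ppard (-1.12, 0.0121).

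Markers of other liver cells were called in the same comparisons. Over all genes, 11.2% were called in LAC against NUL, 16.1% in ID2 against LAC and 4.12% in ID8 against ID6. Single calls of 1 of 5 or 1 of 6 markers are near these shares. Of 6 Kupffer cell markers 4 were lower in LAC than in NUL and 4 higher in ID2 than in LAC, and of 6 stellate cell markers 2 were lower in LAC and 1 was higher in ID2. Of 5 bile duct markers 2 were lower in LAC and 1 was higher in ID2, and 2 of 5 sinusoidal endothelial and 4 of 8 pancreatic acinar markers were higher in ID2 than in LAC. From ID6 to ID8, where Pnpla2 was called, 4 of 6 Kupffer cell markers were lower. Summed stellate markers were 212 to 217.8 CPM in LAC and 265 to 313 CPM in NUL. Adipocyte markers had 0 calls among 4 tested in these comparisons, and all 4 markers of brown fat were too low to test. The median log2 difference of the 4 adipocyte markers was -0.025 in LAC against NUL, 2.02 in ID2 against LAC and -0.93 in ID8 against ID6. The part of these cells in the values of the 9 genes was not tested.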

How the data were processed

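Whole liver tissue was the source, with Trizol for RNA and NEBNext Ultra for libraries, per the labels' protocols. The submitters' processing notes name STAR 2.6.1a and RSEM 1.3.1, with the builds mm10 and GRCm38. The expected count of each gene is the authors' RSEM estimate, per the file headers. TPM is the authors' length-scaled value, and the effective length is RSEM's other column, both per the file headers. Reads of 16 libraries came from 2 runs and of 11 from 1 run. Symbols and positions came from GENCODE mouse release 21 on GRCm38 by identifier, and 193 identifiers were not found (0.0147% of counts). The title number of each animal occurs in 1 group only. Groups come from the titles, and each library is a separate animal.

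Rounded expected counts went into edgeR 4.0.16 under R 4.3.3 (filterByExpr, TMM, robust glmQLFit, glmQLFTest) as 1 fit of 27 libraries with 7 groups and no covariate. The common dispersion was 0.0360. The 11 comparisons and the joint test were two-sided, with Benjamini-Hochberg adjustment over all 16428 genes and calls at an adjusted p under 0.05. SE came from the fold change and its F statistic. Alternatives used DESeq2 1.42.0, limma 3.58.1 on log2(TPM + 1) and log2(TPM + 0.1), other filters, covariates and fits without 1 animal. Tested on simulated data for LAC against NUL over 16064 genes, the method recovered 83% of 2-fold and 100% of 4-fold changes, with 10 false calls. The changed genes lay above 1 CPM and had the spread typical of their level. Genes that vary more between livers, such as Pnpla3, are not covered by these shares. Ratios were compared by exact permutation, and pairs of genes by 100000 permutations within stages (scipy 1.17.1).

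The 10 genes and all lists were chosen with earlier results of these data known. All 10 were described at every stage. From each list up to 2 rising and 2 falling called genes were taken by size of change in 4 comparisons, of which the text names a part, and for each gene called in the joint test the 3 most correlated genes. A single one of these genes is not reported here. The limit given for a count of 0 covers counting error alone.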

Additional observations from a re-analysis of the deposited data

Results flagged for a closer look

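Among the 36 groups of 4 or more livers and genes checked, 2 held a liver whose distance from the others took up most of the range of its group. Chance alone sets about 1 in 20 such groups apart. Both were the same animal, NUL_220. Its reads came from 1 run and those of the other 3 NUL livers from 2 runs. The Pnpla3 level of NUL_220 was 10.66 CPM, while the other 3 NUL livers lay between 3.34 and 4.53 CPM, and the gap was 0.837 of the range. Its Cidec level was 1.138 CPM, against 1.56 to 1.62 CPM in the others, with a gap of 0.882. Without NUL_220 the log2 fold change of Pnpla3 in LAC against NUL was 3.70, against 3.19 with it.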

How the results depend on the processing

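No paired analysis was possible because no title number occurs in more than 1 group. Of the 9 tested genes, the joint test called 4, and 3 (without ID2_224) to 7 (without ID8_14) when single livers were left out. Over all genes it called 27%, and 27.5% without ID8_14. The counts in the comparisons ranged from 0 to 2 in LAC against NUL, 1 to 3 in ID2 against LAC, 0 to 3 in ID6 against ID4, 0 to 3 in ID8 against ID6 and 0 to 1 in ID8 against NUL. At an adjusted p under 0.01 the counts were 2 in the joint test and 0 in LAC against NUL, ID2 against LAC, ID6 against ID4 and ID8 against ID6. With the title number range as a covariate they were 1 in ID2 against LAC, 0 in ID6 against ID4 and 0 in ID8 against ID6, beside 7.6%, 4.07% and 0.0365% of all genes. Fitted on the compared groups only, 1 gene was called in ID2 against NUL, 1 in ID4 against ID2, 1 in ID4 against NUL, 0 in ID8 against ID6 and 4 in ID2 against LAC, beside 3.35%, 2.87%, 4.87%, 1.98% and 18.2% of all genes. DESeq2 called 1 in ID4 against NUL, 2 in ID8 against ID6 and 1 in ID8 against NUL, beside 6.86%, 7.37% and 1.42% of all genes. On log2(TPM + 1) the count was 0 in ID6 against ID4 and 0 in ID8 against ID6, beside 10.1% and 5.22% of all genes, and on log2(TPM + 0.1) it was 1 and 0, beside 10.2% and 5.03%. In ID8 against ID6 it was 0 also with the effective length as an offset and with the number of runs as a covariate, an alternative chosen after seeing the data. The cause of these moves was not tested. The 4 pairs of genes that deviated together became 0 without the 2 farthest livers. Signs turned for Plin2 in ID2 against NUL (0.122 with the clock score), for Pnpla3 without ID8_14 (-1.01 against ID6 and -0.131 against NUL, with highest values of 2.44 and 3.325 without ID8_98b), for the ratio of G0s2 to Pnpla2 in LAC (0.002 without NUL_221, lowest -0.549 without LAC_213) and ID8 (0.122 without ID8_101b, 0.230 without NUL_221, lowest -0.297 without NUL_227), and for Plin5 to Plin2 in REG (-0.003 without REG_203, -0.036 without REG_214, highest 0.249 without REG_239). None of these had passed its main test (edgeR, or exact permutation for the ratios), while DESeq2 called Pnpla3 in ID8 against NUL. Over all genes, 1837 were called in LAC against NUL, 1140 to 1678 without 1 animal, 2170 by DESeq2 and 822 at an adjusted p under 0.01. In ID8 against ID6, 677 were called, and 117 without ID8_101b, 6 with the title number range and 1210 by DESeq2. In ID2 against LAC the 2648 genes became 1389 without LAC_213, and in ID6 against ID4 the 1401 became 738 without ID4_13. Cidea passed the filter in 9 fits without 1 animal, whose smallest group was smaller. It passed through the livers in which it was highest, ID6_201 and ID6_209. The joint test called it in 4 of these fits, but from the same values that let it in, so these calls are not read as a difference. Comparisons of 2 stages called Cidea 0 times in these fits. Cidec, Plin4 and the low ID4 values of Pnpla3 rest on few counts.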
